A study of Mus musculus with 11 samples.

Results

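Ribosome biogenesis is the work of the nucleolus: RNA polymerase I transcribes the ribosomal DNA, small nucleolar ribonucleoproteins (snoRNPs) modify the precursor RNA, and assembly factors cut, fold and package it into the small (40S) and large (60S) subunits. It is among the most costly activities of a growing cell, and growth factors and the transcription factor MYC are known to drive it. Haploinsufficiency of several of its genes disturbs craniofacial development, since neural crest derivatives such as palatal mesenchyme are sensitive to reduced ribosome production. The account below covers 36 genes of this pathway, picked by name: 5 of RNA polymerase I and its initiation factors, 3 box C/D snoRNP proteins, 5 box H/ACA snoRNP proteins with their chaperone, 10 factors of the small subunit, 9 of the large subunit, and 4 abundant nucleolar proteins. Each of the 36 matched exactly 1 row of the deposited table of 23286 rows through its RefSeq accession, and all 36 were among the 11702 rows with at least 1 FPKM in a group.

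The cells, MEPMs, were palatal mesenchyme of the mouse embryo, cultured from the E13.5 palate, grown in 10% serum and kept overnight in 0.1% serum. This starved state was the background of every group: 4 libraries were of starved cells only, 4 of cells given 30 ng/mL PDGFA for 1 h, and 3 of cells given FGF1 at 50 ng/mL together with heparin at 1 µg/mL, also for 1 h. PDGFA and FGF1 activate receptor tyrosine kinases. Heparin, a cofactor of FGF1, was not given to the other groups, so FGF1 and heparin cannot be told apart. No strain or genotype was labelled, and nothing says whether replicates were separate cultures or litters. PolyA RNA was sequenced, so the polymerase I product itself was not measured.

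Each group has a single FPKM (fragments scaled to transcript length and to the number of mapped fragments) per gene, estimated by the authors from all libraries of the group, with a deposited lower and upper bound, given here in square brackets. No value per library was used, so there is no replicate spread and no p-value. A gene is called changed where the deposited intervals of the compared groups lie wholly apart and each FPKM lies inside its own interval. Sequencing depth is unknown. Bulk FPKM cannot tell fewer cells expressing a gene from less RNA per cell. Of 12 palatal mesenchyme markers, Vim and Col1a2 were the most abundant, at 1982 and 2025 FPKM in starved cells, while Tbx22 stood under 1 FPKM in all groups. Prrx1, Barx1, Twist1, Msx1 and Shox2 had 233, 60.7, 60.1, 59.8 and 18.6 FPKM in starved cells. Pdgfra, Osr2 and Meox2 were low there, at 3.87, 3.73 and 1.43 FPKM. The Col1a1 row holds a failed estimate in every group, so its level is not known from this table. Summed over lists, the blood markers had 0.118 FPKM in starved cells, the endothelial markers 2.22 and the epithelial markers 3.54, the last with 5.85 in PDGFA and 4.71 in FGF1 cells. The neural and Schwann markers summed to 38.8 FPKM in starved, 51.2 in PDGFA and 46.6 in FGF1 cells, most of it Tubb3. The 9 skeletal muscle markers summed to 23.9 FPKM in starved, 110.4 in PDGFA and 30.997 in FGF1 cells. Acta1 made up 87.5 FPKM of the PDGFA sum, against 17.2 in starved cells, and Acta1 and Actc1 (1.46 and 10.96 FPKM) were called higher with PDGFA; the other 7 were not called, and Myod1 and Myf5 were under 1 FPKM in all groups. The part of these cell types in the values below was not tested.

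The 36 genes had similar estimates in every group, and 30 of 36 had at least 10 FPKM in starved cells. Some, such as Polr1e and Fbl, stood below the median of all compared rows. In starved cells they spanned 5.71 to 179 FPKM, with a median of 23.4, against 11.7 for all compared rows. With PDGFA the span was 5.34 to 145 FPKM and with FGF1 5.63 to 189, and the order of the genes was nearly the same (Spearman 0.977 for starved against PDGFA and 0.990 for starved against FGF1, across the 36 genes, which share the libraries). The highest gene lay 31.3-fold above the lowest in starved cells, whereas the largest ratio of either ligand to starved for any of the genes was 1.41. Walking down the order, 1 pair of neighbours had intervals that lay apart in starved cells (Npm1 and the gene below it), 0 with PDGFA and 1 with FGF1, so the positions of other neighbours cannot be told apart.

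**Figure D1:**
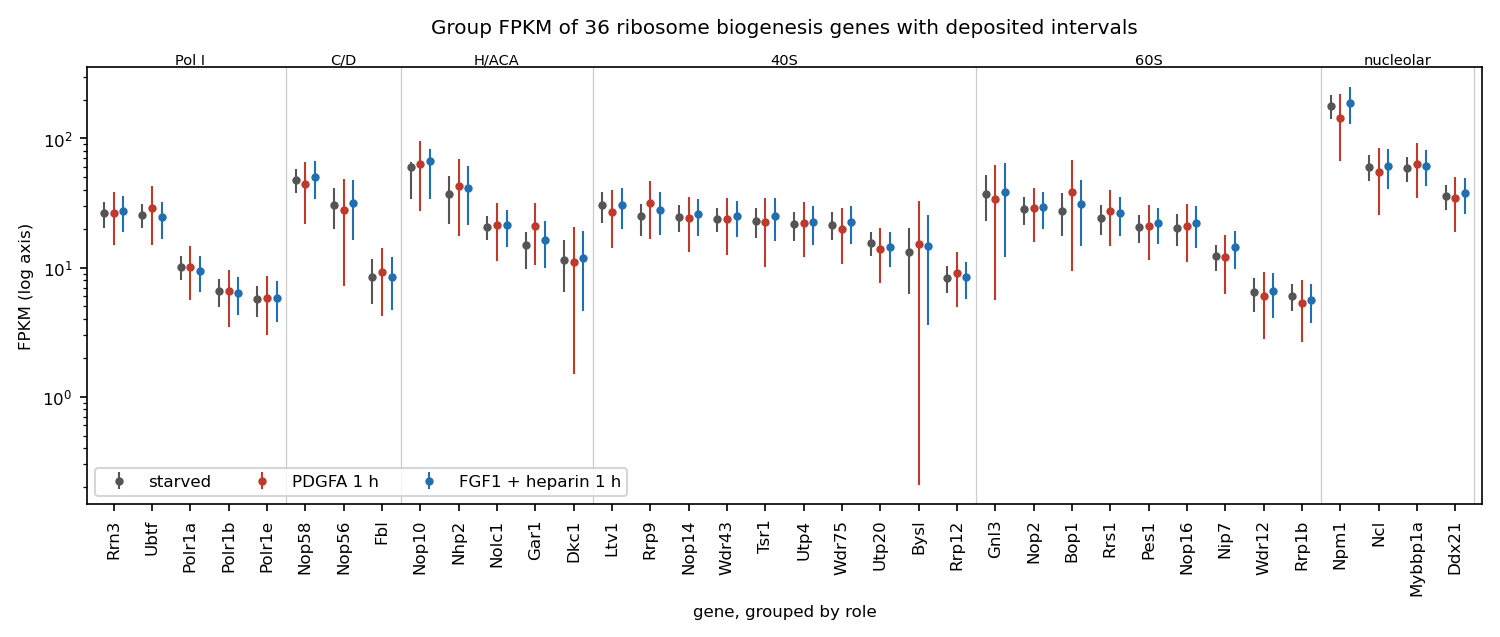
FPKM (log axis) of the 36 genes in starved (grey), PDGFA (red) and FGF1 with heparin (blue) cells, grouped by role; points are the authors' group estimates and bars their deposited intervals. The 3 points of each gene lie close together and their intervals overlap, while genes differ up to 31.3-fold in starved cells.

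No gene of the 36 was called changed by either ligand. With PDGFA, 0 of 36 were called, where 0.308% of all compared rows were called in either direction. With FGF1 0 of 36 were called, where 0.555% of rows were. Between the ligands 0 of 36 were called, where 0.12% of rows were. Under looser rules the members called were again 0 of 36: with z values from the intervals, where 1.06% of rows were called with PDGFA, 1.13% with FGF1 and 0.761% between the ligands, and with intervals narrowed to 1 standard error, where 3.49%, 2.65% and 1.67% were. The background shares are so small that 0 called genes among 36 does not set the pathway apart from other rows.

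The log2 folds (of FPKM + 0.5) were small in both comparisons. With PDGFA they ran from -0.30 to 0.49 with a median of 0.011, and 18 of 36 genes had the higher value with PDGFA; over all compared rows the median was -0.0029 and 49.3% had the higher value. With FGF1 they ran from -0.12 to 0.23 with a median of 0.064, and 29 of 36 genes had the higher value with FGF1; over all compared rows the median was 0.020 and 56.0% had the higher value. The FGF1 values thus leaned to 1 side, by a small amount per gene. Of rows with at least 5 FPKM in a group, as all 36 genes had, 62.2% had the higher value with FGF1 (median 0.036). For PDGFA that share was 53.0%, with a median of 0.018. With FGF1 the 36 genes, at 80.6%, still leaned further than rows with at least 5 FPKM. The margin was smaller than that over all compared rows. After quantile normalization of the 3 columns, 10 of 36 genes had the higher value with PDGFA and the median turned to -0.062, where the median of all rows was -0.068. In the same setting 19 of 36 had the higher value with FGF1 and the median was 0.0030, where that of all rows was -0.013. Both comparisons share the starved group.

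**Figure D2:**
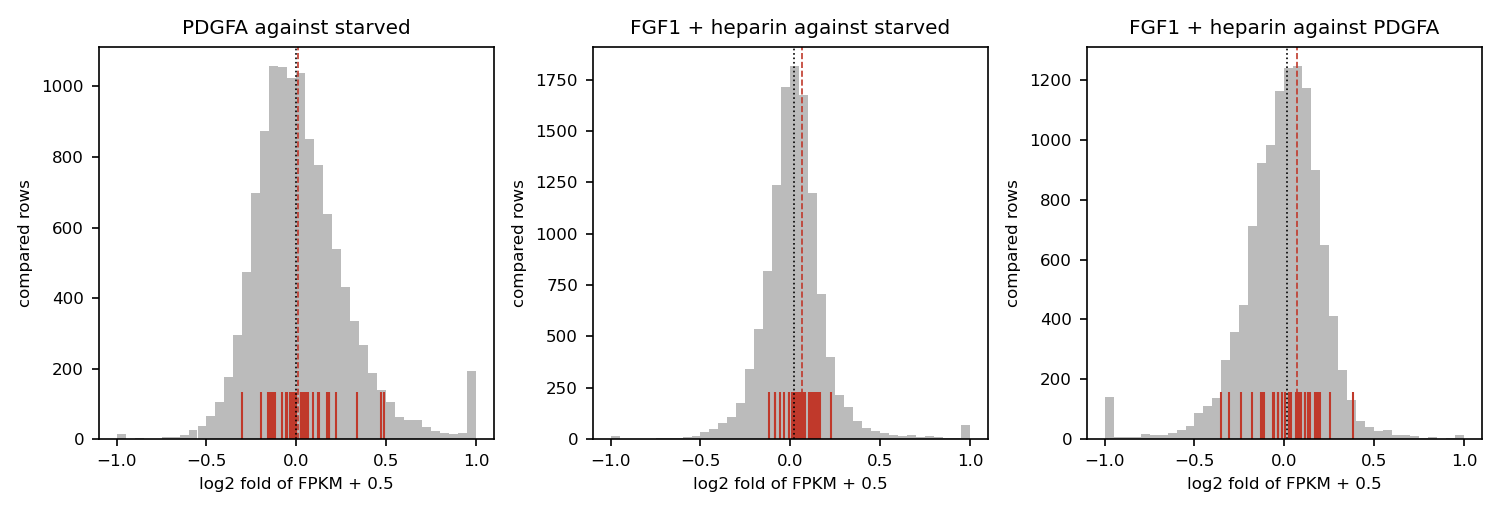
Histograms of the log2 fold of all compared rows (grey, values beyond 1 in either direction gathered in the end bars) with the 36 genes as red ticks; the dotted line is the median of all rows and the dashed line that of the 36 genes. The ticks sit inside the bulk against starved, between -0.30 and 0.49 for PDGFA and between -0.12 and 0.23 for FGF1. For FGF1 against PDGFA they run from -0.35 to 0.38, where Npm1 lies above 0.300, the value that 95% of all rows stay under.

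RNA polymerase I is built around its largest subunit Polr1a and second-largest subunit Polr1b, with Polr1e in a peripheral dimer, while Rrn3 (TIF-IA) links the enzyme to its promoter complex and Ubtf (UBF) binds the ribosomal DNA. Rrn3 and UBF are known targets of ERK phosphorylation, a step that RNA levels do not show. Polr1a, at chr6:71909053-71979360, had 10.2 [8.02 to 12.3] FPKM in starved, 10.2 [5.59 to 14.7] in PDGFA and 9.36 [6.45 to 12.3] in FGF1 cells. Polr1b had 6.54 [4.97 to 8.11], 6.54 [3.496 to 9.58] and 6.36 [4.27 to 8.43] FPKM in the same order. Polr1e, the lowest gene of all 36 in starved cells, had 5.71, 5.83 and 5.84 FPKM. Each subunit thus had nearly the same estimate in all groups, and Polr1a with FGF1 had the lowest log2 fold of the whole set, -0.12. Rrn3 and Ubtf had higher FPKM than Polr1a, Polr1b and Polr1e in every group. This does not hold for all subunits, since Polr1c and Polr1d had 35.2 and 54.9 FPKM in starved cells. Other initiation factors were not compared here. Rrn3, at chr16:13780699-13814841, had 26.2 [20.4 to 32.01] FPKM in starved, 26.7 [14.9 to 38.5] in PDGFA and 27.4 [18.98 to 35.8] in FGF1 cells. Ubtf, at chr11:102304560-102319096, had 25.6 [20.2 to 30.9], 29.1 [15.1 to 43.1] and 24.5 [16.8 to 32.3] FPKM. Its value was higher with PDGFA and lower with FGF1 than in starved cells, by ratios of 1.14 [0.673 to 1.92] and 0.959 [0.656 to 1.402], and the intervals overlapped in every comparison. Here and below, the bracket after a ratio is an interval computed from the deposited bounds taken as 95% bounds, whose level the file does not state.

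MYC is known to bind the E-box CACGTG in promoters of this pathway, which is why the E-boxes of these genes are shown. RefSeq promoters (GRCm38.p6, 250 bases before to 50 after each start) were found for 31 of the 36 genes, and 9 of the 31 (29.0%) held CACGTG, a palindrome and so the same on both strands. Of 9143 genes with a compared row and a promoter, 12.1% held it, as did 8.09% of all 27025 genes in the promoter table. Rrn3 held it at positions -215 and -48 from the start and Nop2 at position -60; the other 7, Pes1, Wdr43, Utp4, Ltv1, Utp20, Mybbp1a and Tsr1, held it within 50 bases after the start. Capitals mark the E-box in the sequences, each 5′ to 3′ along the gene.
Rrn3 promoter (chr16:13780449-13780698, plus strand): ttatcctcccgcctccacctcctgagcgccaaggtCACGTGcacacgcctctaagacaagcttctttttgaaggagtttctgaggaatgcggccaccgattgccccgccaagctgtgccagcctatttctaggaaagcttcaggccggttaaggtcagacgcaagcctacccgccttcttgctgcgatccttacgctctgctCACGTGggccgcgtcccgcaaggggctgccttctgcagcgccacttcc
Nop2 promoter (chr6:125131786-125131865, plus strand): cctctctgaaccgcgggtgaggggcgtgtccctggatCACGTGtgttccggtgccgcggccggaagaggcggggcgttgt
Pes1 start site (chr11:3963965-3963994, plus strand): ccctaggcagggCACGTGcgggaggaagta
Wdr43 start site (chr17:71616220-71616249, plus strand): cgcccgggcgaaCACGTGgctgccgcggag
Utp4 start site (chr8:106893643-106893672, plus strand): tgcgcaagcgcgCACGTGgggccggggcgg
The other motifs searched, on both strands, were the ETS core CCGGAAG, found in 10 of 31 genes (32.3%) against 1920 of the 9143 genes with a compared row, the SP1 core GGGCGG, found in 25 of 31 (80.6%) against 71.8%, and the SRF CArG box, found in 0 of 31 against 1.59%. Genes with several annotated starts had more sequence searched. A match is a run of letters and not a bound site.

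The Myc transcript did change. Myc, at chr15:61985341-61990361, had 26.1 [20.5 to 31.8] FPKM in starved, 41.1 [21.6 to 60.6] in PDGFA and 53.4 [36.99 to 69.9] in FGF1 cells. With FGF1 it rose 2.04 [1.403 to 2.98]-fold, a call made for 0.538% of compared rows in that direction; 0.0256% of rows were called higher with FGF1 than with PDGFA. With PDGFA its interval overlapped the starved interval, at a ratio of 1.57 [0.934 to 2.65], and the PDGFA and FGF1 intervals overlapped too, so a difference between the ligands was not shown. At this time the 9 genes with an E-box had a median log2 fold of 0.061 with FGF1, from -0.087 to 0.13, and the 22 with a promoter and no E-box a median of 0.066, from -0.12 to 0.23. With PDGFA the medians were 0.023 and -0.015.

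**Figure D3:**
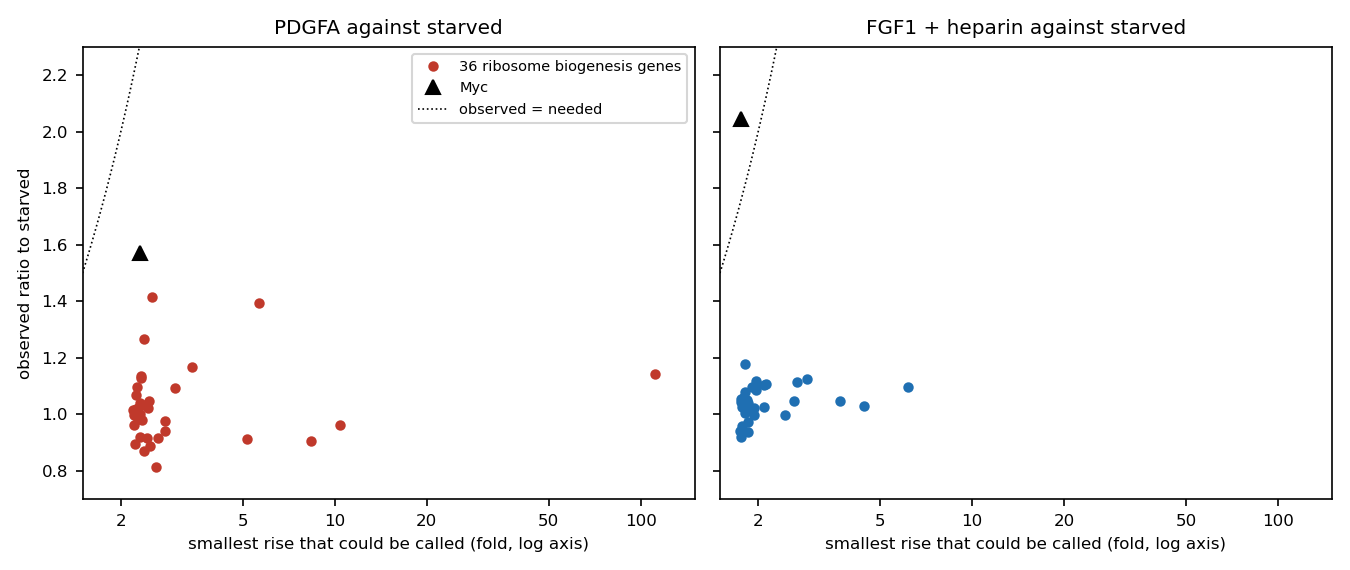
Observed ratio to starved against the smallest rise that could have been called (log axis), for the 36 genes (circles) and Myc (triangle), for PDGFA on the left and FGF1 with heparin on the right; the dotted line marks equality. All 36 circles lie below the line in both panels, and Myc lies above it only with FGF1.

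The width of the deposited intervals sets what could be seen. For the typical gene of the 36, a rise would have had to reach 2.38-fold with PDGFA and 1.86-fold with FGF1 for the intervals to lie apart, if the relative bounds stayed as they were. The ratio intervals give the other limit: for 26 of 36 genes with PDGFA and 31 of 36 with FGF1 the interval of the ratio to starved lay wholly between 0.5 and 2. Changes beyond 2-fold were thus outside the interval for most of the genes, whereas the smallest rise that could have been called for any of them was 2.19-fold with PDGFA and 1.74-fold with FGF1. The interval of the ratio included 1 for all 36 genes in all 3 comparisons.

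Box C/D snoRNPs guide ribose methylation of the precursor RNA. Fibrillarin (Fbl) is the methyltransferase, and Nop56 and Nop58 are the paired scaffold proteins that hold the guide RNA. Nop58, at chr1:59685006-59711510, had 48.1 [38.03 to 58.1] FPKM in starved, 44.002 [21.8 to 66.2] in PDGFA and 50.3 [34.2 to 66.5] in FGF1 cells. Nop56, at chr2:130274412-130284451, had 30.4 [19.9 to 40.999], 27.7 [7.24 to 48.3] and 31.9 [16.4 to 47.4] FPKM. The scaffold pair had like values, with log2 folds of -0.13 and -0.13 with PDGFA and 0.066 and 0.066 with FGF1, all with overlapping intervals. Fbl had 8.44 [5.19 to 11.6], 9.23 [4.21 to 14.2] and 8.4002 [4.73 to 12.03] FPKM. The Nop58 level was 5.70 times that of Fbl in starved cells and 5.99 times with FGF1, and their intervals lay apart in all 3 groups. The Fbl level is uncertain, because 79.01% of its 31-base words also occur in transcripts of another locus; for Nop56 the share was 38.2%.

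The introns of Nop56, Nop58, Ncl, Gnl3, Tsr1 and Wdr43 hold snoRNAs, so that the genes of the machinery also encode its guides. The table has 12 snoRNA rows at these 6 loci, of which 9 were listed at 0 in all groups; mature snoRNAs carry no polyA tail and the libraries were polyA selected. The 3 rows with a value were Snord57 at Nop56 (listed at 0, 66.2 [0 to 131] and 0 FPKM in starved, PDGFA and FGF1 cells), Snord19 at Gnl3 (0, 153 [0 to 298] and 0) and Snora75 at Ncl (40.1 [0 to 74.2], 0 and 0). Each of the 3 values had a lower bound of 0, and none of the rows was called; these 3 were singled out after their values were seen. The guides of the Nop56 locus are shown because their boxes are what the Nop56 complex binds; capitals mark box C (TGATGA, or none where that exact word is missing) and box D (CTGA), in GENCODE M21 transcripts.
Snord110 (chr2:130275506-130275573, plus strand): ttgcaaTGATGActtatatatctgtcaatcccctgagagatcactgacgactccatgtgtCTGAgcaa
Snord57 (chr2:130278016-130278087, plus strand): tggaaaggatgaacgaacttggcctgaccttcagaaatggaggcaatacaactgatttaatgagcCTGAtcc

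Box H/ACA snoRNPs guide pseudouridylation. Dyskerin (Dkc1) is the catalytic subunit, Gar1, Nhp2 and Nop10 complete the core, and Nolc1 (Nopp140) is a chaperone of both snoRNP classes. Gar1, at chr3:129824912-129831396, had 14.8 [9.798 to 18.7] FPKM in starved, 21.002 [10.5 to 31.5] in PDGFA and 16.4 [9.86 to 22.8] in FGF1 cells. Its ratio of PDGFA to starved, 1.41 [0.788 to 2.54], was the largest of all 36 genes, yet the intervals overlapped, and 5.29% of all compared rows had a larger log2 fold. With FGF1 the ratio was 1.102. Nop10, a short subunit gene, had 60.3 [33.9 to 65.2], 63.2 [27.6 to 94.9] and 66.8 [33.98 to 83.1] FPKM. Nhp2 had 37.04, 43.2 and 41.3 FPKM and Nolc1 20.7, 21.5 and 21.2. Dkc1 had 11.4 [6.51 to 16.3], 10.98 [1.51 to 20.4] and 11.9 [4.59 to 19.2] FPKM. All 5 genes had the higher value with FGF1 and 4 of 5 with PDGFA, where Dkc1 was the exception. The core subunits were not expressed at equal levels per length: Nop10 stood 5.29 times above Dkc1 in starved cells, with intervals apart in all 3 groups, whereas Gar1 and Dkc1 had overlapping intervals.

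The small subunit processome is the large complex that forms on the nascent precursor RNA and excises the 18S RNA. Utp4, Wdr43 and Wdr75 belong to its first module, UtpA, which also couples it to ribosomal DNA transcription. Utp4 had 21.6, 22.03 and 22.4 FPKM in starved, PDGFA and FGF1 cells. Wdr43 had 23.8, 23.6 and 25.1 FPKM, and Wdr75 21.5, 19.8 and 22.6. Utp4, Wdr43 and Wdr75 were matched in level: in every group each pair had a level ratio between 0.895 and 1.19 and overlapping intervals. Other genes of the UtpA module were not part of this comparison, so it does not show that the module as a whole was matched. Such matching was not particular to these genes, since Polr1b stood at 1.14 times Polr1e in starved cells. Among snoRNP pairs, Nop58 and Fbl had intervals apart in every group. Nop58 and Nop56, Nop10 and Nhp2, and Gar1 and Dkc1 overlapped in every group. Rrp9, the U3 snoRNA-binding protein gene at chr9:106477309-106485415, had 25.1 [17.6 to 31.3], 31.9 [16.6 to 46.9] and 28.1 [17.8 to 38.4] FPKM, and its PDGFA log2 fold of 0.34 was the third largest of the 36. Utp20, a scaffold of the processome, had 15.5, 13.9 and 14.5 FPKM and lay below the starved value with both ligands. Nop14, which joins the 40S head factors, had 24.7, 24.3 and 25.9 FPKM. These genes stayed within 1.27-fold of starved with either ligand.

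Later 40S maturation and export depend on Rrp12, Bysl, Ltv1 and Tsr1. Rrp12, which serves pre-ribosome export, had 8.35, 9.14 and 8.39 FPKM. Ltv1, which holds back premature folding of the 40S head, had 30.8 [22.3 to 38.7], 26.8 [14.1 to 39.5] and 30.7 [19.8 to 41.5] FPKM, and its log2 fold of -0.20 was the lowest of the small subunit genes with PDGFA. Tsr1, a GTPase-like factor, had 22.97, 22.4 and 25.3 FPKM. Their intervals overlapped in every comparison. Bysl (bystin), at chr17:47505051-47611492, had 13.3 [6.27 to 20.4], 15.2 [0.209 to 32.9] and 14.6 [3.61 to 25.6] FPKM, the widest intervals of the set relative to the FPKM. Its row shares a merged locus with Ccnd3, a D cyclin gene at 132, 137 and 137 FPKM, and with PDGFA only a 111-fold rise could have been called. Across the 36 genes, the 11 whose locus in the table holds other rows had an average distance from FPKM to bound of 59.5% of the FPKM with PDGFA (median over genes), against 46.6% for the 25 alone in their locus; in starved cells the values were 34.8% and 23.9%.

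The 60S factors include the PeBoW complex of Pes1, Bop1 and Wdr12, which is needed for 28S and 5.8S RNA maturation and is a known MYC-responsive unit. Bop1, at chr15:76380513-76477269, had 27.7 [17.5 to 37.8] FPKM in starved, 38.6 [9.35 to 67.9] in PDGFA and 31.1 [14.7 to 47.5] in FGF1 cells. Pes1 had 20.5 [15.6 to 25.4], 20.9 [11.5 to 30.3] and 22.1 [15.1 to 29.2] FPKM, and 34.5% of its words occur at another locus. Wdr12 had 6.43 [4.51 to 8.34], 6.05 [2.81 to 9.28] and 6.601 [4.11 to 9.096] FPKM. The level of Bop1 was 4.31 times that of Wdr12 in starved cells and 6.39 times with PDGFA, and that of Pes1 3.20 and 3.45 times; these intervals lay apart in all 3 groups, so Wdr12 was the lowest PeBoW gene throughout. Bop1 had the second-largest PDGFA log2 fold of the set, 0.47, with a ratio of 1.396 [0.602 to 3.24], and shares its merged locus with Mroh1 and Scx.

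Nip7, which acts in 60S and 18S processing, had the largest FGF1 log2 fold of all 36 genes. At chr8:107056877-107060928 it had 12.3 [9.46 to 15.1] FPKM in starved, 12.01 [6.29 to 17.7] in PDGFA and 14.4 [9.79 to 19.1] in FGF1 cells, a FGF1 ratio of 1.18 [0.793 to 1.75]. Its intervals overlapped, and 7.66% of all compared rows had a larger log2 fold. Nop2, an RNA methyltransferase and proliferation marker, had 28.3, 28.8 and 29.3 FPKM. Nop16 had 20.4, 21.1 and 22.2 FPKM and Rrs1, which brings the 5S particle into the 60S precursor, 24.3, 27.3 and 26.6. Both had the higher value with either ligand. Rrp1b had 6.01, 5.34 and 5.63 FPKM and was the 60S gene with the lower value under both ligands. Gnl3 (nucleostemin), a GTPase of stem and dividing cells, had 37.5 [22.9 to 52.05], 33.98 [5.63 to 62.4] and 38.5 [12.04 to 65.1] FPKM. Of the 9 genes of the 60S group, 8 had the higher value with FGF1 and 5 with PDGFA, with median log2 folds of 0.11 and 0.023.

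Npm1 and Ncl are the abundant nucleolar proteins, a histone chaperone and an RNA-binding scaffold, while Ddx21 is an RNA helicase and Mybbp1a a regulator of polymerase I transcription. Npm1, at chr11:33152498-33163206, was the highest gene of the set, with 179 [141 to 216] FPKM in starved, 145 [67.4 to 222] in PDGFA and 189 [129 to 249] in FGF1 cells. It had the lowest PDGFA log2 fold of the 36, -0.30, and the largest FGF1-against-PDGFA log2 fold, 0.38, with overlapping intervals in both, and 38.4% of its words occur at another locus. Ncl, at chr1:86344719-86359455, had 60.4 [46.6 to 74.2], 55.4 [25.8 to 85.04] and 61.3 [40.4 to 82.2] FPKM. Ddx21 had 35.7, 34.4 and 37.7 FPKM and Mybbp1a 59.1, 63.1 and 61.7. All 4 had the higher value with FGF1, by log2 folds from 0.020 to 0.082, and 3 of 4 the lower value with PDGFA.

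**Figure D4:**
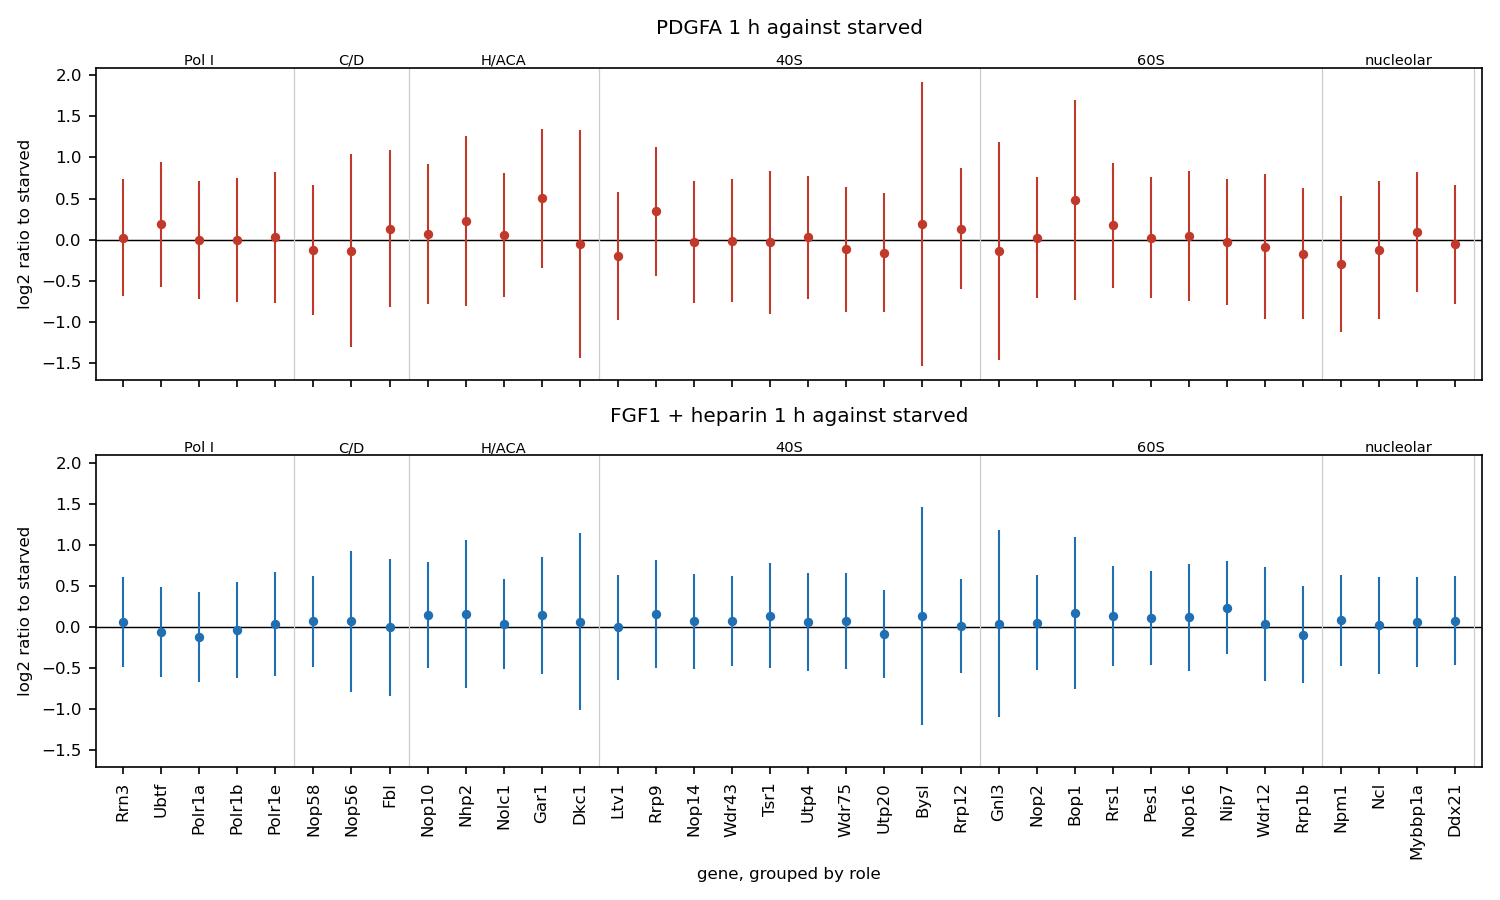
Log2 ratio of each ligand group to starved for the 36 genes by role (upper panel PDGFA, lower panel FGF1 with heparin); bars are intervals computed from the deposited bounds. Every bar crosses 0; Gar1 is highest with PDGFA at a ratio of 1.41 and Nip7 with FGF1 at 1.18.

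The differences among the genes with PDGFA varied with the base composition of their transcripts. Across the 36 genes, the PDGFA log2 fold and transcript GC content had a Spearman correlation of 0.790, against 0.610 over 11510 compared rows of at least 200 nt; with FGF1 the values were 0.085 and 0.183. The points share their libraries and are not replicates, so the correlations are descriptions. Of the 18 genes with the higher GC content (50.5% to 59.8%), 14 had the higher value with PDGFA, and of the 18 with the lower (41.0% to 50.2%), 4 did. Set against PDGFA, FGF1 gave the higher value for all 18 lower-GC genes and for 5 of the other 18. Gar1, Bop1 and Rrp9, with the 3 highest PDGFA log2 folds, had 57.04%, 58.2% and 59.8% GC. Npm1, Ltv1 and Rrp1b, with the 3 lowest, had 42.5%, 45.6% and 52.7%, so Rrp1b was low despite lying among the higher-GC genes. After a trend on GC, length and level fitted over all rows was removed, the PDGFA log2 fold was 0.35 for Gar1, 0.27 for Bop1, 0.12 for Rrp9, -0.14 for Npm1, -0.080 for Ltv1 and -0.23 for Rrp1b, the lowest of the 36, and the correlation with GC across the 36 genes was 0.166. In that setting 24 of 36 genes had the higher value with PDGFA, where 48.6% of all rows did, and 0 were called. The PDGFA medians were 0.021 for the 36 genes and -0.0055 for all rows. For FGF1 the numbers were 26 of 36 and 53.7%, with medians of 0.050 and 0.0095. With FGF1, log2 folds were lower for longer transcripts (Spearman -0.558 across the 36 genes), and with PDGFA the value was -0.317. The correlation with length was not computed over all compared rows, so it cannot be called a trait of these genes.

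**Figure D5:**
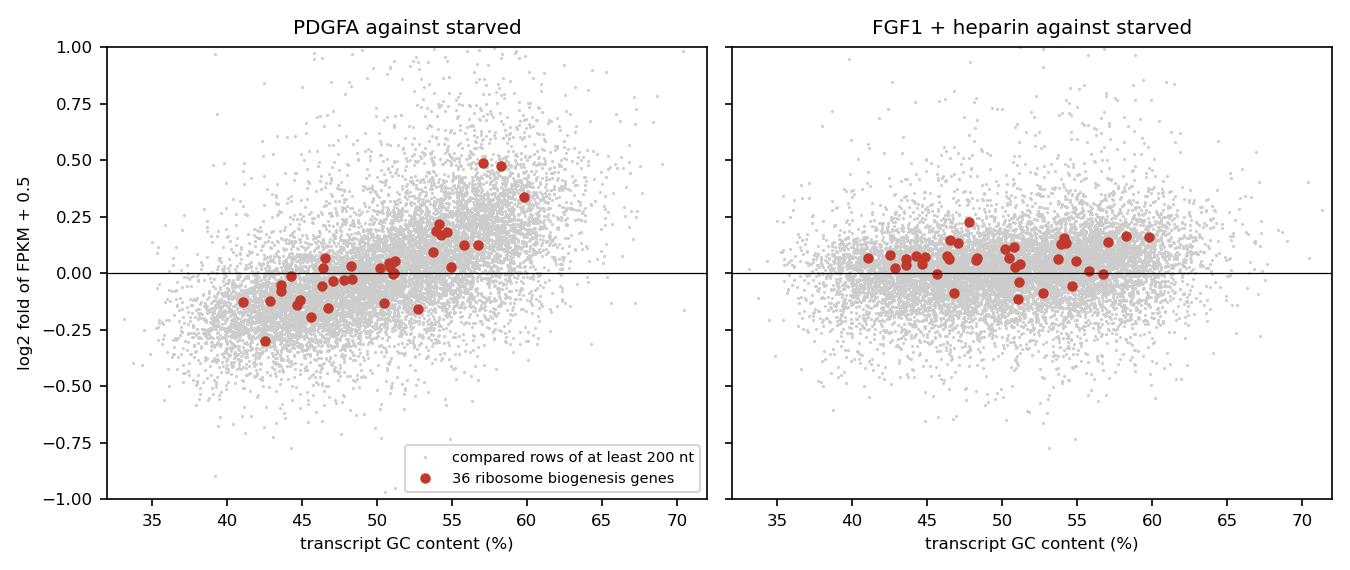
Log2 fold against transcript GC content for all compared rows of at least 200 nt (grey) and the 36 genes (red), for PDGFA (left) and FGF1 with heparin (right). The red points climb with GC content for PDGFA (Spearman 0.790) and not for FGF1 (0.085).

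Set directly against each other, the ligands gave log2 folds (FGF1 against PDGFA) from -0.35 for Gar1 to 0.38 for Npm1, with a median of 0.068, and 23 of 36 genes had the higher value with FGF1, where 53.1% of all compared rows did. By role the median was 0.19 for the 3 box C/D genes, 0.14 for the 4 nucleolar proteins, 0.076 for the small subunit, 0.071 for the large subunit, -0.016 for the H/ACA genes and -0.037 for the polymerase I group. With the composition trend removed the median over the 36 was 0.011, close to the 0.0061 of all rows.

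The rest of the pathway gave values of the same order. A list of 127 other ribosome biogenesis genes (polymerase I subunits and factors, processome and 40S factors, 60S factors, and the RNA exosome with RNase MRP) had 126 compared genes, of which 0 were called in any comparison; with 0.308%, 0.555% and 0.12% of all rows called, 0 does not set them apart. Their median log2 fold was 0.0021 with PDGFA, with 63 of 126 above starved, and 0.033 with FGF1, with 81 of 126 (64.3%) above, where 49.3% and 56.0% of all rows were. Where at least 5 FPKM in a group was required, the FGF1 medians were 0.034 for these genes and 0.036 for all rows. Tcof1, the treacle gene mutated in Treacher Collins syndrome, had 12.4 [9.705 to 15.1] FPKM in starved, 12.8 [6.78 to 18.8] in PDGFA and 11.4 [7.69 to 15.1] in FGF1 cells. Polr1c and Polr1d, subunits shared with RNA polymerase III and mutated in the same syndrome, had 35.2, 40.2 and 38.4 FPKM and 54.9, 53.005 and 55.6 FPKM. The craniofacial disease genes of the pathway thus had overlapping intervals in all groups. Outside the MYC network the largest PDGFA log2 fold, 0.62, was that of Eif6, which keeps 60S subunits from joining too early and had 61.02 [43.3 to 74.2], 94.2 [48.4 to 139.7] and 73.7 [47.2 to 99.7] FPKM. The lowest PDGFA log2 folds were -0.44 for the 60S factor Nsa2 and -0.37 for the box C/D core gene Snu13. With FGF1 the highest outside the MYC network was 0.33 for Zfp593, and the lowest were -0.27 for Rpp40, of RNase MRP, and -0.25 for Ttf1, the polymerase I terminator. None of these was called.

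In the MYC network, 8 of 9 genes were compared and Myc with FGF1 was the 1 call. Mnt, a MAX-binding repressor, had 9.54 [7.38 to 11.7] FPKM in starved, 15.3 [8.097 to 22.5] in PDGFA and 14.4 [9.94 to 18.9] in FGF1 cells, with overlapping intervals. Mga, another MAX partner, had log2 folds of -0.37 with PDGFA and -0.28 with FGF1, also uncalled. The rise of Myc with FGF1 at 1 h stood beside 36 ribosome biogenesis genes with no call, where 0.555% of all compared rows were called. That share is so small that 0 of 36 does not set these genes apart. For the typical gene of the 36, a rise under 1.86-fold with FGF1 could not have been called.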

How the data were processed

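The tools named in the submitters' processing notes are CASAVA, TopHat and Cuffdiff, and the build is mm10. Versions, settings and annotation: not given in the sources used here. Each FPKM, as deposited by the authors, is 1 estimate per group with bounds whose level is not stated. Gene names came from RefSeq (GRCm38.p6, which is mm10) by accession for 22988 of 23286 rows; positions are 1-based. Rows needed at least 1 FPKM in a group and no failed estimate (2 rows had one). Log2 folds used FPKM + 0.5, which understates changes of low genes. GC content, length and shared 31-base words came from GENCODE M21 transcripts; genes sharing 20% or more with another locus are uncertain. The call rule was also run on simulated data whose noise was drawn from the deposited interval widths. Such a run cannot show how the rule behaves under real replicate spread. The members, lists and call rule were chosen with earlier results of these data known. All 36 members are named; of the other genes, those called, the 3 largest rises and falls per ligand, and Myc, Polr1c, Polr1d and Tcof1. Alternatives covered the pseudocount, minimum FPKM, scaling, interval rule, composition trend and locus filters. Scripts ran in Python 3.11.15 with matplotlib 3.10.9, statsmodels 0.14.6, scipy 1.17.1, pandas 2.3.3 and numpy 2.4.6.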

Additional observations from a re-analysis of the deposited data

How the results depend on the processing

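No paired analysis was possible because the table holds 1 value per group and none per library; limma with a replicate block and leaving out each replicate were not run for the same reason. In every alternative run, 0 of the members compared were called in each comparison, looser interval rules included. The narrowed intervals called 3.49% of all compared rows with PDGFA, 2.65% with FGF1 and 1.67% between the ligands. Beside such shares, 0 called members does not set them apart from other rows. In that setting 1 of the 126 other pathway genes, Eif6, was called with PDGFA, which is not above the share of all rows. The Myc log2 fold of 0.64 with PDGFA became a call, and Mnt was called higher with both ligands. Quantile normalization left 10 of 36 members with the higher value for PDGFA and 19 for FGF1, while the share of all rows went from 49.3% to 38.1% and from 56.0% to 44.5%. Among the 25 members alone in their locus, 18 had the higher value with FGF1 and 15 with FGF1 against PDGFA; fewer members entered. Over the alternatives the members' median ran from -0.062 to 0.025 for PDGFA, 0.0030 to 0.066 for FGF1 and 0.011 to 0.088 between the ligands, so the sign of the PDGFA median is not settled. Leaving out the 4 members that share 20% or more of their words was an alternative chosen after seeing the data. Depth is unknown, and the wide PDGFA intervals limit what that comparison can show.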

Other observations

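The products that this machinery assembles, the cytosolic ribosomal proteins, were looked at as a list taken up after the data were seen, by symbols of the form Rpl or Rps with a number. Of 75 compared rows, 58 lay above starved with FGF1 (median log2 fold 0.11) and 23 with PDGFA (median -0.21), where 56.0% and 49.3% of all compared rows did. With the composition trend removed the medians were 0.017 and -0.31, and 42 and 18 rows had the higher value. With PDGFA 2 rows were called higher, Rps16 (3.56 FPKM [1.90 to 5.23] in starved and 134 [25.5 to 243] in PDGFA cells) and Rps29 (4.08 [0.977 to 4.20] and 26.2 [5.27 to 39.8]), and 0 with FGF1, where 0.308% and 0.555% of all rows were called in either direction. The rule could call nothing for 16 of the 75 rows with PDGFA and 18 with FGF1, since an FPKM lay outside its own interval. Both called rows share much of their sequence with copies, 45.8% and 39.2% of their words, and 67 of the 75 rows shared 20% or more, while 1 had no such value. The 7 rows under that limit had a median of 0.036 with PDGFA and 0.14 with FGF1.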
